A study of Mus musculus with 4 samples.

Results

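The 7 genes described here are S100a8, S100a9, Retnlg, Lcn2, Csf3r, Wfdc17 and Wfdc21, named for neutrophil granules and neutrophil maturation. They were taken by symbol from the 22620 genes of the deposited tables, and all 7 were found. The study measured single-cell RNA of immune cells from MC38 tumours, which grow from a mouse colon carcinoma line, in WT mice and in mice with a gene knocked out (KO). Tumours were digested with enzymes, CD45-positive cells were enriched on magnetic beads, and droplet libraries were made with a 10x Genomics 3' kit. There are 2 libraries per genotype, WT 1, WT 2, KO 1 and KO 2. All 4 share the tumour line and the bead enrichment, and the labels give no age, strain, drug or number of animals per library. All p-values below thus rest on 2 libraries against 2, whose spread could be technical. The sources used here do not say how the KO allele was made.

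Neutrophils store antimicrobial proteins in granules that form in sequence while the cell matures in the bone marrow, and mature cells leave the marrow under the control of the cytokine G-CSF. S100A8 and S100A9 form the calcium- and zinc-binding dimer calprotectin, the main protein of neutrophil cytosol, which acts on TLR4 and RAGE once released. Lipocalin 2 is a granule protein that binds bacterial siderophores, and resistin-like gamma is a secreted protein of marrow and blood myeloid cells. CSF3R is the receptor of G-CSF. WFDC17 and WFDC21 are small secreted proteins with a WAP domain, a fold known from protease inhibitors such as SLPI, and WFDC17 was first known from activated macrophages and microglia.

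After filters on genes, mitochondrial UMIs and doublets, 8063, 8193, 14838 and 8776 cells remained in WT 1, WT 2, KO 1 and KO 2, with median UMI counts of 9823, 11903, 5449.5 and 7818. Clusters were built without the 7 genes and named by markers, none of which is a member. A single cluster of 775 cells was neutrophil-like, with 206, 114, 373 and 82 cells, or 2.55%, 1.39%, 2.51% and 0.934% of the kept cells. It expressed 10 of 12 neutrophil markers in at least 10% of its cells, among them Hdc, G0s2, Stfa2l1, Cxcr2 and Asprv1, and its cells were shallow, with library medians of 1460 to 1681.5 UMIs. The median was under 1/3 of that of its libraries, and the name rests on those markers leading the cluster. Its sums held 343071, 220628, 577440 and 146323 UMIs. The monocyte- or macrophage-like class held 23415 cells in 9 clusters, of which 4 were macrophage-like (10840 cells) and 2 were monocyte-like (4138 cells). Different clusters filled it in the genotypes: clusters 2 (led by Chil3, Ccr2) and 9 (Fcrls, Cbr2) held most of the WT cells, and clusters 6 (Pf4, Ccl7), 8 (C3, Saa3), 13 (Ly6i, Plac8) and 5 (Ass1, Ltb4r1) most of the KO cells. Clusters 7, 14, 3 and 11 stayed unnamed and outside the class by rules set after the clusters were seen; cluster 7 (Mmp13, Gpnmb) held 11.5% and 11.2% of kept cells in WT and 2.04% and 3.87% in KO, and the shallow clusters 3 and 11 held 5.21%, 3.12%, 3.46% and 4.18%, and 2.68%, 2.82%, 10.0% and 10.4%. Library pairs shared 22 to 51 cell barcodes, 0 of them in neutrophil-like cells.

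S100a8 and S100a9 lie on chromosome 3 of mm10, at 90668978-90670035 on the plus strand and 90692632-90695721 on the minus strand, with 22596 bases between them. Retnlg lies on chromosome 16 at 48872621-48874496, Lcn2 on chromosome 2 at 32384633-32388252 and Csf3r on chromosome 4 at 126024550-126044440. Wfdc17 and Wfdc21 neighbour each other on chromosome 11, at 83703991-83706268 and 83746940-83752642. None of the 7 overlaps another gene of the GENCODE annotation.

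The RefSeq promoter windows of GRCm38.p6, 250 bases before to 50 after a gene's start, matched 6 of the 7 members, all but Wfdc21. Those of the S100 pair are printed because its genes parted outside neutrophils, and those of Retnlg and Lcn2 because both lay lower in the 2 KO than in the 2 WT libraries of neutrophil-like cells. Capitals mark matches to TTGCNNAA, letters of the C/EBP family that drives granule genes, or to GAGGAA, letters of the myeloid factor PU.1, on either strand. The windows are chr3:90668821-90669120 (plus), chr3:90695672-90695971 (minus), chr16:48872358-48872657 (plus) and chr2:32387690-32387989 (minus).
S100a8: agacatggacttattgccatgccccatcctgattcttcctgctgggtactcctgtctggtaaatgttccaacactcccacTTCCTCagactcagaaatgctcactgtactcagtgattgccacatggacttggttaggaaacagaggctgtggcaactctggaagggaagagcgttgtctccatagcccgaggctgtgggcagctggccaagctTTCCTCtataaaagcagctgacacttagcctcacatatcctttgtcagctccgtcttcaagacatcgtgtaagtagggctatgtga
S100a9: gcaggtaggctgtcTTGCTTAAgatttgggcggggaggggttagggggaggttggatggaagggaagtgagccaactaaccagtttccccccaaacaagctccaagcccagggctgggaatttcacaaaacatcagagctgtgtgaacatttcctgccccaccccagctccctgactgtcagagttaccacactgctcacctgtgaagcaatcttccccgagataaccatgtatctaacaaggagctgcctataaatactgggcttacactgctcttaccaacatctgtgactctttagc
Retnlg: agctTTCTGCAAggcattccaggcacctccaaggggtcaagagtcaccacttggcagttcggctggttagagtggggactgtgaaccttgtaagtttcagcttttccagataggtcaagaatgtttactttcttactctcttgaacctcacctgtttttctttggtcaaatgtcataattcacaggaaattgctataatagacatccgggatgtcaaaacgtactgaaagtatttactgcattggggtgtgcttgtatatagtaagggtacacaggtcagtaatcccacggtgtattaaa
Lcn2: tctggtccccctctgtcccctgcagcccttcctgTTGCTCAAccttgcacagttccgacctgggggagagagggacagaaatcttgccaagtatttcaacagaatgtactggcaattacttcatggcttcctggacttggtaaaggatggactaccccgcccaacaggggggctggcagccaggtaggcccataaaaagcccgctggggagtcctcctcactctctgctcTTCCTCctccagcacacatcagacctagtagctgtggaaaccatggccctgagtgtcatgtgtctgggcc
The C/EBP letters stand once in S100a9, Retnlg and Lcn2, and not in S100a8, Csf3r or Wfdc17. Of all 32851 windows 10.8% hold them. The PU.1 letters stand in S100a8 (2 matches), Lcn2, Csf3r and Wfdc17, and in 28.28% of all windows. The letters TTCNNNGAA of STAT factors, which act after CSF3R, stand in none of the 6 windows and in 8.298% of all. A match is a run of letters and not a measured binding site.

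Levels are given as CPM, UMIs of a gene per 1000000 UMIs, of the summed cells of a class. The order of classes was set against free RNA, which droplets carry into cells that do not express a gene. T-like cells serve as its measure. Their median UMI counts were 2583.5, 2555.5, 1798 and 1571.5 in WT 1, WT 2, KO 1 and KO 2. Those of monocyte- or macrophage-like cells were 11795, 13191, 8410.5 and 12600. The T-like CPM can thus overstate the share of free RNA in these deeper cells. Neutrophil-like cells had medians of 1506, 1658, 1460 and 1681.5 UMIs, below the T-like ones in WT 1, WT 2 and KO 1. There the T-like CPM can understate the share of free RNA in them. The S100 pair was the most abundant of the set in neutrophil-like cells: S100a9 stood at 28620, 23190, 25310 and 28230 CPM in WT 1, WT 2, KO 1 and KO 2. S100a8 stood at 19070, 17600, 18560 and 20940 CPM there. Together they made up a median of 2.41% of a neutrophil-like cell's UMIs, from 0 in 82 of the 775 cells to 33.5% in the highest. Of all S100a9 UMIs in kept cells 94.7% lay in the 775 neutrophil-like cells, and of all S100a8 UMIs 66.1%. In monocyte- or macrophage-like cells S100a9 stood between 2.38 and 6.04 CPM, below the 13.8 CPM that T-like cells reached in KO 1. In WT 1 and WT 2 it lay above the T-like level of the same library, 2.47 and 3.36 CPM on 2 and 5 UMIs, and in the KO libraries below it. S100a8 stood there at 28.4, 28.8, 47.3 and 34.9 CPM, above the 2.47 to 15.7 CPM of T-like cells in every library.

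**Figure D1:**
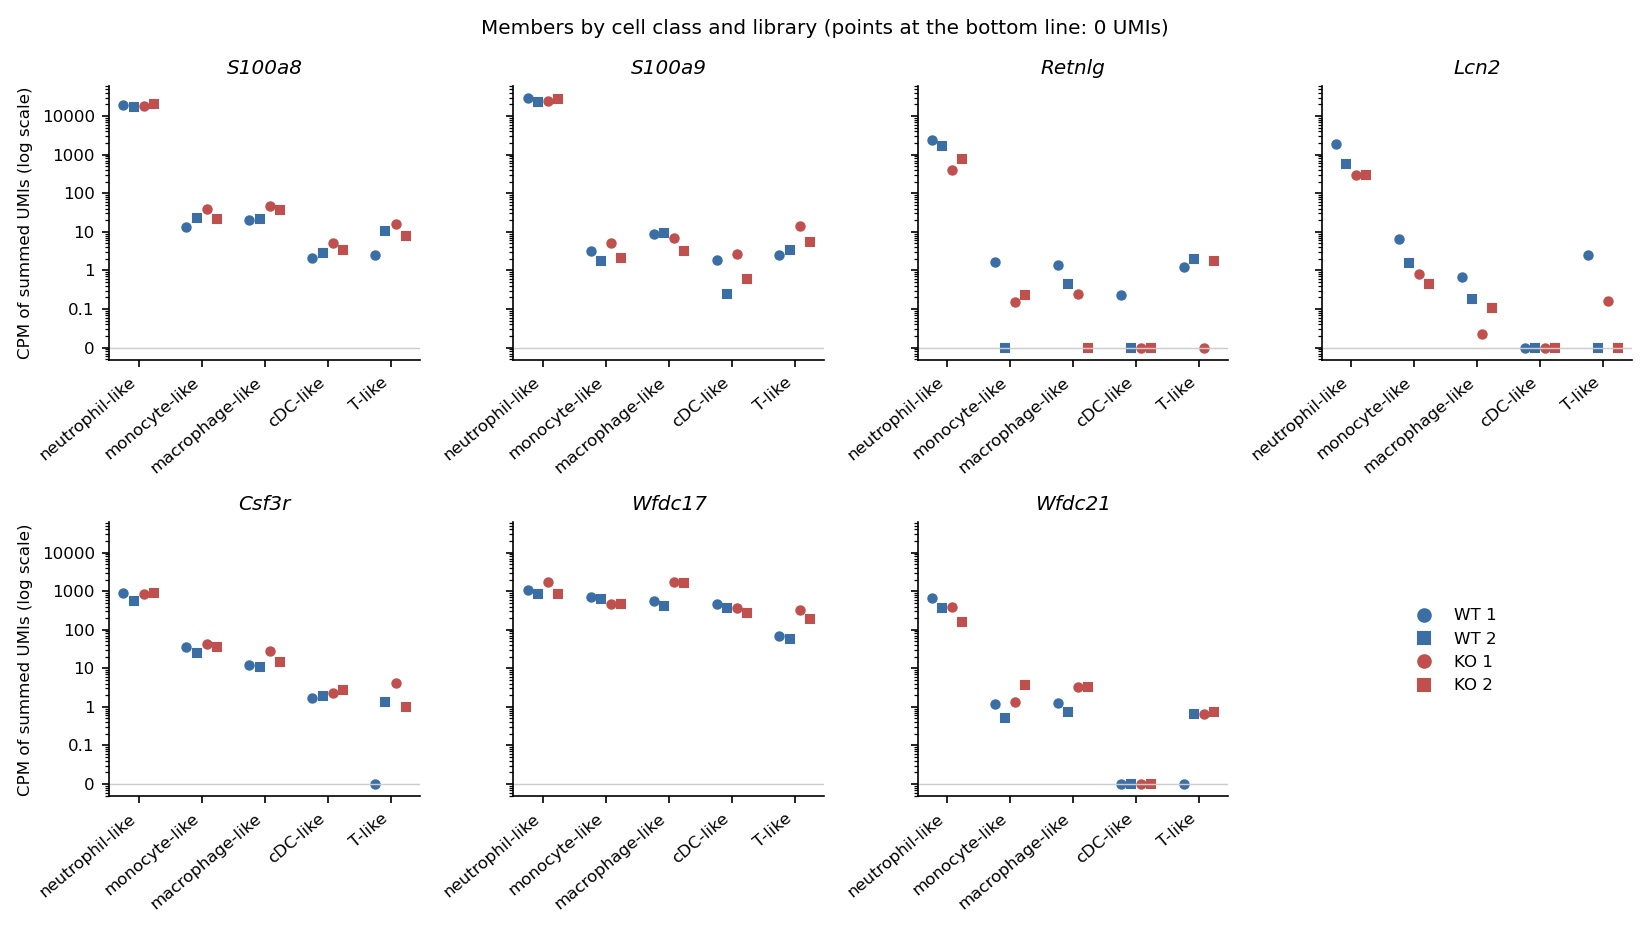
Level of each of the 7 genes (CPM of summed UMIs, log axis) in neutrophil-like, monocyte-like, macrophage-like, conventional dendritic (cDC-like) and T-like cells, 1 point per library, with points on the bottom line at 0 UMIs. The panels of 6 genes are highest in neutrophil-like cells by a wide gap, and Wfdc17 is not: its 4 neutrophil-like libraries (841 to 1680 CPM) overlap its macrophage-like ones (416 to 1743 CPM).

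The 2 genes of the pair therefore parted outside neutrophils. S100a8 made up 40.0%, 43.1%, 42.3% and 42.6% of the pair's UMIs in neutrophil-like cells of WT 1, WT 2, KO 1 and KO 2. In monocyte- or macrophage-like cells it made up 82.5%, 84.5%, 89.6% and 93.6%, with exact binomial 95% intervals of counting error from 80.8% to 94.5% over the 4 libraries. T-like cells, at 50% to 76.2% on at most 99 S100a8 UMIs, lay between. Cluster 12 (led by Cxcl3, Csta2, Il6) was among the clusters with the highest share, at 98.8%, 97.6%, 98.0% and 99.2%, where S100a8 reached 68.1, 74.1, 86.0 and 83.0 CPM while S100a9 had 2 to 11 UMIs per library. Classes were gated on neutrophil markers, so these class differences carry no test.

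**Figure D2:**
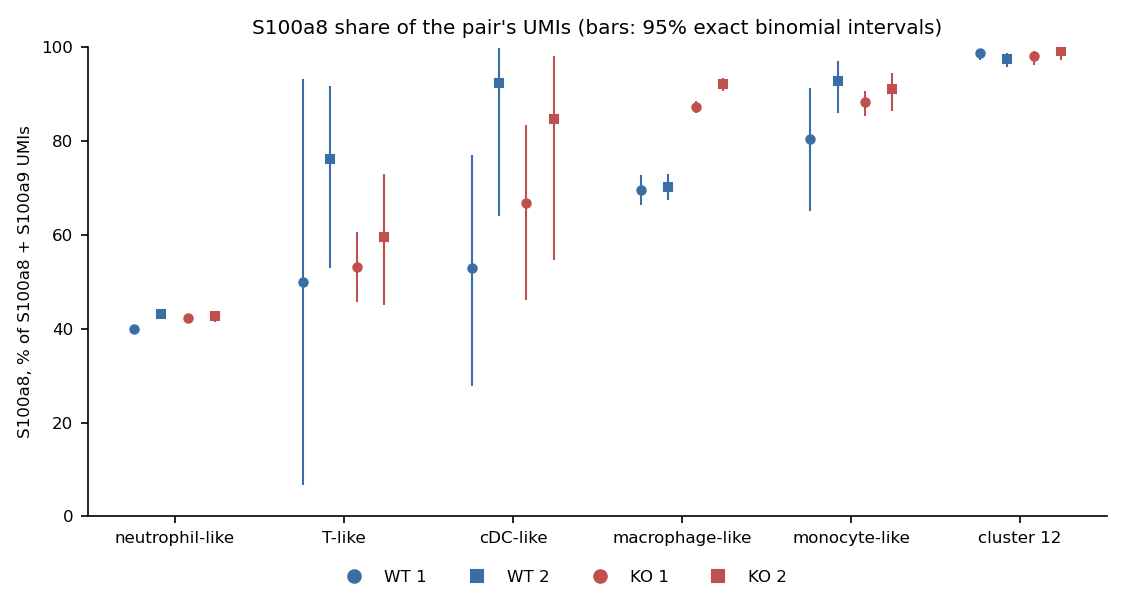
Share of S100a8 in the summed UMIs of S100a8 and S100a9 (%, y axis) by class and library, with exact binomial 95% intervals. The 4 neutrophil-like libraries sit between 40.0% and 43.1%, every macrophage-like, monocyte-like and cluster 12 library sits at 69.6% or above, and the macrophage-like KO libraries sit above the WT ones.

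Retnlg and Lcn2 were the most restricted of the other members. Retnlg had 88.8% of its UMIs in neutrophil-like cells, where it stood at 2434, 1632, 403.5 and 792.8 CPM, and Lcn2 had 79.5%, at 1842, 571.1, 299.6 and 300.7 CPM. In monocyte- or macrophage-like cells Retnlg stood at 1.43, 0.355, 0.282 and 0.0600 CPM, no higher than the 0 to 2.02 CPM of T-like cells. Lcn2 stood there at 1.36, 0.299, 0.154 and 0.135 CPM against 0 to 2.47 CPM in T-like cells. A higher Lcn2 level outside neutrophils, 482.6 CPM, came from 7 fibroblast-like cells of WT 1. Both genes were thus near the T-like level in this class, although Lcn2 reached 6.49 CPM in the monocyte-like cells of WT 1.

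Csf3r, the G-CSF receptor, was spread more widely. It stood at 874.5, 566.6, 820.9 and 922.6 CPM in neutrophil-like cells, which held 17.3% of its UMIs, against 71.0% in the far more numerous monocyte- or macrophage-like cells. Monocyte-like cells had 35.7, 24.5, 43.6 and 35.5 CPM and macrophage-like cells 11.9, 11.1, 28.8 and 14.3 CPM; the ranges of these neighbours overlap, and both lie above the 0 to 4.13 CPM of T-like cells. Among single clusters Csf3r was highest after neutrophils in cluster 8 (44.0 to 77.2 CPM), in cluster 14 (43.1 to 73.4 CPM, led by Cd209f and Lyve1 and left unnamed) and in the monocyte-like cluster 10 (24.9 to 66.9 CPM, led by Rsad2 and Ifit2).

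The WAP genes differed from each other although they are neighbours on the chromosome. Wfdc21 stood at 679.2, 362.6, 396.6 and 157.2 CPM in neutrophil-like cells and at 3.55, 1.95, 3.09 and 5.05 CPM in monocyte- or macrophage-like cells. Wfdc17 stood at 1081, 843.0, 1680 and 840.6 CPM in neutrophil-like and at 410.4, 342.1, 1261 and 1151 CPM in monocyte- or macrophage-like cells. Only 0.508% of Wfdc17 UMIs lay in neutrophil-like cells. Its free RNA was high and higher in KO: T-like cells had 69.1 and 57.1 CPM in WT and 320.6 and 188.1 CPM in KO. The part of free RNA in its neutrophil-like level was not tested. The ratio of the neutrophil-like to the monocyte- or macrophage-like level ran from 0.730 to 2.63 for Wfdc17 and from 31.1 to 191 for Wfdc21 over the 4 libraries, and from 1429 to 13220 for Retnlg.

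Neutrophil-like cells were compared between KO and WT with edgeR's quasi-likelihood test on summed UMIs, with Benjamini-Hochberg adjustment over all genes tested. Retnlg was the only member called: it fell by 1.77 on the log2 scale (SE 0.34, edgeR adjusted p = 0.0286), and both KO libraries lay below both WT libraries. Of the 7 members, all of them tested, 1 was called, lower, against 0.981% of 3263 genes called in either direction and 0.215% called lower. Per 1000 UMIs of the S100 pair, Retnlg had 51.0 and 40.0 UMIs in WT and 9.20 and 16.1 in KO, while the S100 pair itself overlapped between genotypes. After thinning each cell to 1000 UMIs, 28.0% and 37.7% of WT cells and 14.8% and 25.3% of KO cells had a Retnlg UMI (31.1%, 40.4%, 16.1% and 26.8% unthinned), against 0 to 0.294% of T-like cells. Without KO 1 the log2 change was -1.34 and no longer passed (edgeR adjusted p = 0.239), and with doublet calls kept the adjusted p was 0.122.

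**Figure D3:**
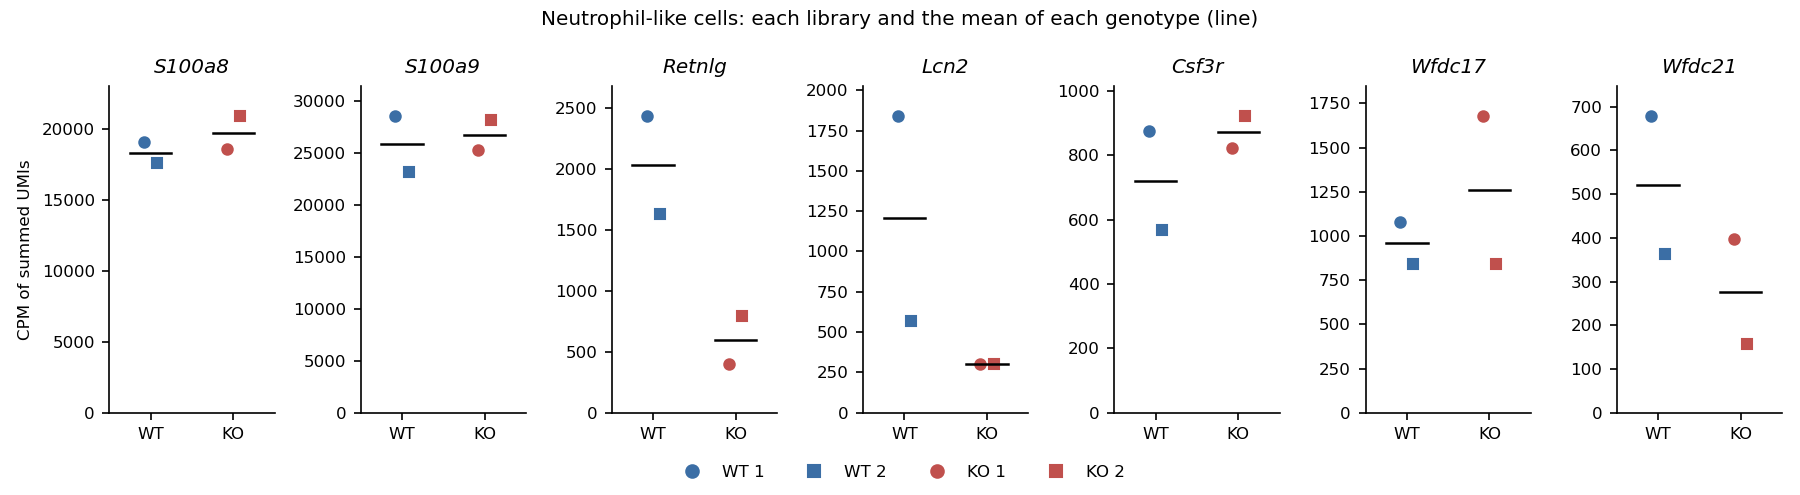
Level of each member in neutrophil-like cells (CPM of summed UMIs, axes from 0) by genotype, 1 point per library and a line at the genotype mean. Retnlg and Lcn2 are lower in both KO libraries than in both WT libraries, while the libraries of the genotypes overlap for the other 5 genes.

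Lcn2 had the largest estimate of the set in neutrophil-like cells, a log2 change of -1.98 (SE 0.48), but did not pass (edgeR adjusted p = 0.0980). Both KO libraries were below both WT libraries, and WT 1, at 1842 CPM, stood far above the other 3. The Lcn2 log2 change was -0.94 without WT 1, -2.57 without WT 2, -1.98 without KO 1 and -1.99 without KO 2. Where a library is left out, here and below, 1 group holds 1 library, which is assumed to vary like the others. Groups that do not overlap are common here: 39.2% of the 3263 genes show it, and 2 of the 7 members, Retnlg and Lcn2. Wfdc21 had a log2 change of -0.81 (SE 0.41, edgeR adjusted p = 0.490), and its libraries overlapped, with WT 2 and KO 1 close together; without WT 2 it passed, at -1.14 (adjusted p = 0.0108). It did not pass without WT 1 (-0.29), KO 1 (-1.71) or KO 2 (-0.38), and 1 of 16 alternatives called it.

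The remaining 4 members did not pass in neutrophil-like cells. The log2 changes were 0.14 for S100a8 (SE 0.21), 0.08 for S100a9 (SE 0.21), 0.30 for Csf3r (SE 0.29) and 0.44 for Wfdc17 (SE 0.32), with edgeR adjusted p-values of 0.723 to 0.969. All 4 overlapped between genotypes. KO 1 held the highest Wfdc17 level, 1680 CPM, and also the highest sum of 10 macrophage markers, 4775 CPM against 1682, 1822 and 2406 CPM in WT 1, WT 2 and KO 2. T cell markers summed to 8.75 and 18.1 CPM in WT and 161 and 88.8 CPM in KO neutrophil-like cells, with 8 of 8 higher in the KO mean. The 4 mast cell or basophil markers summed to 789.9, 0, 5.20 and 328.0 CPM, and none of the 4 was at 0 in all libraries. Median mitochondrial shares were 0.249% and 0.229% in WT and 0.478% and 0.385% in KO. The part of these in the changes was not tested, except that Retnlg stayed called, at -1.83 (edgeR adjusted p = 0.0163), without the 16 cells that had 2 or more mast cell or basophil UMIs.

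Whole-class counts in neutrophil-like cells rest on single libraries: 32 genes were called (25 higher, 7 lower), and 188, 96 and 84 without WT 1, WT 2 or KO 2. Genotype shares of neutrophil-like cells overlapped, at 2.55% and 1.39% in WT and 2.51% and 0.934% in KO. Fewer cells of a subtype and less RNA per cell cannot be told apart for a gene detected in a part of the cells, as Retnlg is.

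In monocyte- or macrophage-like cells Wfdc17 and S100a8 passed the test. Wfdc17 rose by 1.82 on the log2 scale in KO (SE 0.12, edgeR adjusted p = 0.000421), and its 2 KO libraries lay far above its 2 WT libraries. S100a8 rose by 0.65 (SE 0.14, edgeR adjusted p = 0.0283), also without overlap. Of the 7 members 2 were called, both higher, against 13.6% of 12284 genes called in either direction and 7.67% called higher. Scaling by total counts in place of TMM took the all-gene median log2 change from -0.02 to -0.15 and the calls from 942 higher and 728 lower to 694 higher and 1688 lower, with both members still called higher. The S100a8 call was lost without WT 1, WT 2 or KO 1 (log2 changes of 0.61, 0.71 and 0.43) and in 5 other settings. Wfdc17 stayed called in all 15 alternatives, but its log2 change ran from 1.185 to 1.92 over them. Among them was a fit with clusters 7 and 14 counted in the class, which each expressed 10 macrophage markers. In cluster 7 Wfdc17 stood at 1972, 1227, 3823 and 4043 CPM in WT 1, WT 2, KO 1 and KO 2. In cluster 14 it stood at 5801, 7224, 2380 and 2250 CPM. Both held larger shares of WT than of KO cells, so the size of the rise depends on leaving them out. Of all Wfdc17 UMIs 43.1%, 52.3%, 81.5% and 75.2% lay in this class in WT 1, WT 2, KO 1 and KO 2.

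Csf3r had a log2 change of 1.17 in these cells (SE 0.30, edgeR adjusted p = 0.0780), with 9.93 and 9.74 CPM in WT and 26.0 and 14.3 CPM in KO. It passed without KO 1 (0.68, adjusted p = 0.00840) and without KO 2 (1.53, adjusted p = 3.08e-06). Retnlg, Lcn2, Wfdc21 and S100a9 did not pass, with log2 changes of -2.16, -2.33, 0.71 and -0.38 and edgeR adjusted p-values of 0.116 to 0.595. Of the 7 members 5 did not overlap between genotypes, as did 67.2% of all genes tested. Leaving out WT 2 brought Retnlg to -2.83 (adjusted p = 0.0456) and Lcn2 to -3.04 (adjusted p = 0.00412), while without WT 1 they stood at -0.91 (adjusted p = 0.560) and -0.94 (adjusted p = 0.379). Without KO 1 Retnlg stood at -3.68 (adjusted p = 0.372), and without KO 2 at -1.49 (adjusted p = 0.557). Leaving out KO 1 brought S100a9 to -1.10 (adjusted p = 0.00328), at levels no higher than the highest of T-like cells.

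**Figure D4:**
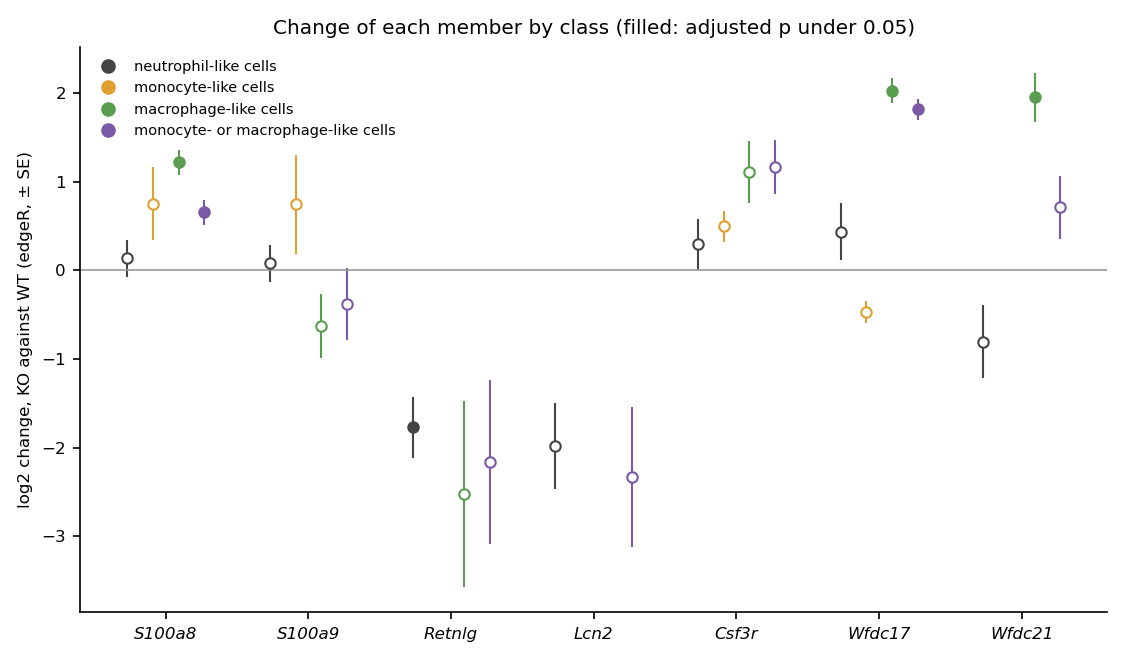
Log2 change of each member, KO against WT, in 4 classes (edgeR estimate with its standard error), filled where the adjusted p was under 0.05; members with too few counts in a class have no point. Retnlg and Lcn2 lie below 0 in every class where they were tested, and Wfdc17 runs from -0.47 in monocyte-like to 2.03 in macrophage-like cells.

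Macrophage-like cells taken alone gave larger estimates for the 3 members called there. Retnlg (-2.52) and S100a9 (-0.63) also lay further from 0 than in the pooled class, but did not pass. Wfdc17 rose by 2.03 on the log2 scale (SE 0.14, edgeR adjusted p = 0.000231), from 539.4 and 416.2 CPM in WT to 1743 and 1632 CPM in KO. S100a8 rose by 1.22 (SE 0.14, adjusted p = 0.00172), from 19.7 and 22.01 to 47.2 and 37.2 CPM. Wfdc21 rose by 1.95 (SE 0.28, adjusted p = 0.00365), from 1.25 and 0.744 to 3.27 and 3.37 CPM, where T-like cells had 0 to 0.757 CPM. Its 35, 24, 147 and 124 UMIs in WT 1, WT 2, KO 1 and KO 2 lay in 22, 12, 42 and 42 cells. These were 1.01%, 0.55%, 0.984% and 1.90% of the macrophage-like cells, shares that overlapped between genotypes. Of the 6 members tested 3 were called, all higher, against 17.2% of 11763 genes in either direction and 9.59% higher, and all 6 did not overlap between genotypes, as did 71.4% of all genes. With at most 10% mitochondrial UMIs and new clusters S100a8 was at 0.64 (edgeR adjusted p = 0.0727) and Wfdc21 at 0.56 (adjusted p = 0.645). The S100a8 call was also lost with doublet calls kept (adjusted p = 0.0789) and with a per-cell marker gate (adjusted p = 0.0886).

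In monocyte-like cells none of the 4 members tested was called by edgeR, against 4.20% of 10122 genes, and 2 had an unadjusted p under 0.05. Wfdc17 stood at 699.4 and 635.6 CPM in WT and 469.0 and 453.6 CPM in KO, a log2 change of -0.47 (SE 0.13, edgeR adjusted p = 0.0677). DESeq2 called it, as did 6 other alternatives, and 4 others gave it a positive sign. Csf3r had a log2 change of 0.50 (SE 0.18, adjusted p = 0.176), S100a8 of 0.75 (adjusted p = 0.445) and S100a9 of 0.75 (adjusted p = 0.566). Of the 4 members 1, Wfdc17, did not overlap between genotypes, as did 46.6% of all genes.

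Since the genotypes filled different clusters, Wfdc17 was also followed within each cluster. Both KO libraries lay above both WT libraries in 7 of the 9 monocyte- or macrophage-like clusters, with ratios of the KO to the WT mean from 1.57 in cluster 12 to 5.02 in cluster 1, a cluster led by the cell-cycle genes Mki67 and Top2a. The exceptions were the monocyte-like clusters, 10 (ratio 0.895) and 13 (ratio 1.04), whose libraries overlapped. With each cluster weighted equally the KO mean was 1.95 times the WT mean, against 3.21 times for the pooled class. In T-like cells, the measure of free RNA, Wfdc17 was also higher in KO (320.6 and 188.1 CPM) than in WT (69.1 and 57.1 CPM). Cluster 2, at 138.6 and 125.2 CPM in WT and 217.8 and 295.1 CPM in KO, lay below the T-like level in KO 1. The part of free RNA in the rises within clusters was not tested. Cluster 14 held the highest Wfdc17 levels of the WT libraries, 5801 and 7224 CPM, and 2380 and 2250 CPM in KO, the reverse direction. The highest KO levels, 3823 and 4043 CPM, stood in cluster 7. Cluster 14 was left out of the class because a dendritic cell marker stood among its leading genes, and it held 3.03%, 1.48%, 0.452% and 0.912% of the kept cells.

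**Figure D5:**
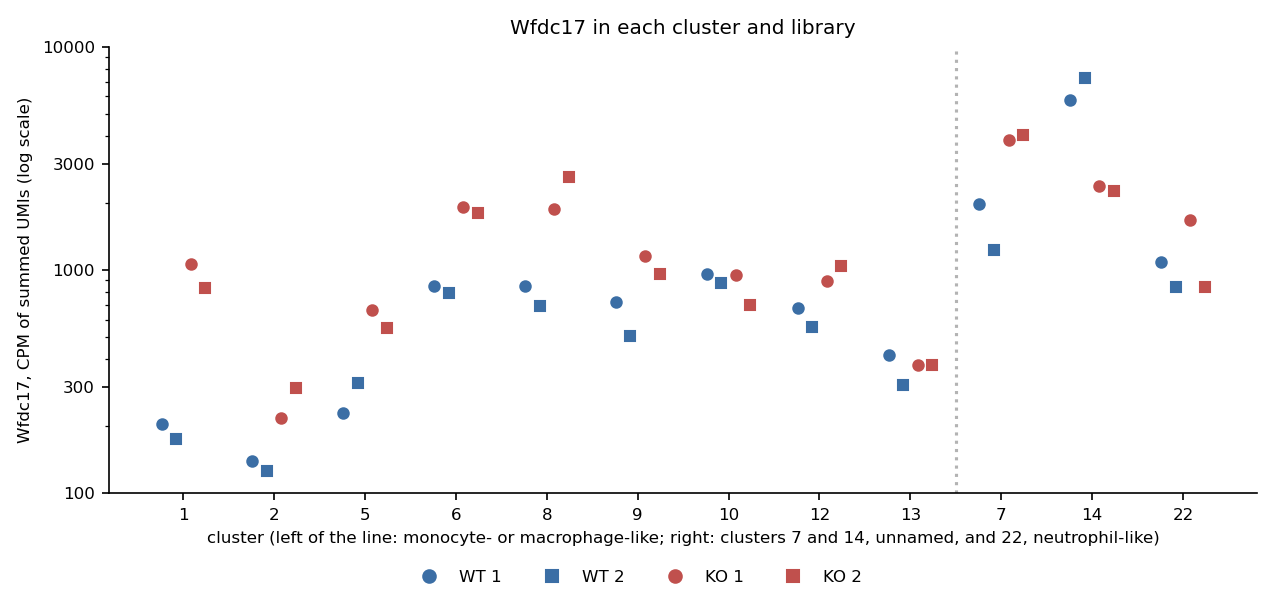
Wfdc17 level (CPM of summed UMIs, log axis) in each cluster and library, with the 9 monocyte- or macrophage-like clusters left of the dotted line and the unnamed clusters 7 and 14 and the neutrophil-like cluster 22 right of it. KO points lie above WT points in clusters 1, 2, 5, 6, 7, 8, 9 and 12, mix with them in 10, 13 and 22, and lie below them in 14.

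The same view of the other members showed less order. S100a8 was higher in both KO libraries than in both WT libraries in 3 of the 9 clusters, and the widest gap, 2.66 and 17.5 CPM against 69.2 and 85.2 CPM, stood in cluster 8, which held 66 and 85 WT cells and 1726 and 498 KO cells. Csf3r did not overlap, with KO higher, in 6 of the 9, at ratios of 1.14 to 2.70. The Csf3r KO mean was 1.26 times the WT mean with clusters weighted equally, against 2.05 times for the pooled class. Cluster 8, among the highest for Csf3r, overlapped at a ratio of 0.900. It held 0.819% and 1.04% of kept cells in WT and 11.6% and 5.67% in KO. Retnlg and Lcn2 were lower in both KO libraries in 3 and 6 clusters, and Lcn2 was higher in both in 2 others, 8 and 10. A cluster held at most 31 UMIs of Retnlg and 37 of Lcn2 in any library. Wfdc21 was higher in both KO libraries in 2 of the 9 clusters. Of the macrophage-like clusters it overlapped between genotypes in 1, 6 and 8 (ratios of 1.502, 1.85 and 1.55) and not in 9, which held 1 to 3 UMIs per library. With each cluster of the class weighted equally its KO mean was 1.42 times the WT mean, against 1.48 times for the pooled class and 3.33 times for pooled macrophage-like cells.

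Whether neutrophil-like cells changed differently from monocyte- or macrophage-like cells was tested as an interaction, with the library as a block. Wfdc17 differed by -1.39 on the log2 scale (SE 0.31, edgeR adjusted p = 0.00193) and Wfdc21 by -1.38 (SE 0.32, adjusted p = 0.00570), the change in neutrophil-like cells being the lower one. The neutrophil-like level over the other was 2.63, 2.46, 1.33 and 0.730 for Wfdc17 in WT 1, WT 2, KO 1 and KO 2. For Wfdc21 it was 191, 186, 128 and 31.1, so its KO libraries lay far apart. The SEs draw on the spread of all genes tested and not on these ratios alone. Wfdc21 passed in neither class by itself, and its libraries overlapped in both. Both of the 7 members called were lower, against 0.627% of 11807 genes in either direction and 0.525% lower. The other 5 did not pass: Csf3r differed by -0.77 (adjusted p = 0.539), S100a8 by -0.46, S100a9 by 0.61, Lcn2 by 0.34 and Retnlg by 0.20 (adjusted p = 0.945 to 1.00). For Retnlg the test cannot tell whether the deficit is confined to neutrophils. The monocyte- or macrophage-like class held 84, 25, 22 and 4 Retnlg UMIs in WT 1, WT 2, KO 1 and KO 2, at CPM within the range of T-like cells. Both calls were lost without WT 1, WT 2 or KO 2, with adjusted p-values of 0.0557 to 0.764 for Wfdc17 and 0.1003 to 1.00 for Wfdc21. The Wfdc17 call was also lost with doublet calls kept, with at most 10% mitochondrial UMIs and with the clusters led by other markers counted in the class (adjusted p = 0.470, 0.471 and 0.798), and the Wfdc21 call in DESeq2 and with a per-cell marker gate (adjusted p = 0.384 and 0.994).

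The 6 lists of related genes were read from the same fits; some of their genes (Cxcr2, Mmp9, Mmp8, Cd177 and Ly6g) were also neutrophil markers, and Hp a monocyte marker. In neutrophil-like cells primary granule genes, made by immature precursors, were at the edge of detection: Prtn3 had 5.83, 0, 0 and 6.83 CPM, Ctsg 0, 0, 3.46 and 6.83 CPM, and 0 of the 5 could be tested. Of 12 specific and gelatinase granule genes 9 were tested and 0 were called, with a median log2 change of -0.12 against 0.01 over all genes. Mmp9, the gelatinase, stood at 664.6, 407.9, 916.1 and 874.8 CPM, and Hp, haptoglobin, at 574.2, 661.7, 497.0 and 751.8 CPM. Of 16 maturation and CSF3 signalling genes 11 were tested and 0 were called; all 11 had a positive log2 change (9 with total-count scaling), with a median of 0.34. Cebpb, a C/EBP factor, stood at 4617, 4483, 4161 and 4982 CPM, and the chemokine receptor Cxcr2 at 588.8, 607.4, 671.9 and 656.1 CPM.

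Among relatives of the members none was called in neutrophil-like cells. Of 10 S100 relatives and receptors of the pair 9 were tested and 0 called, with a median log2 change of 0.07; S100a6 stood at 3474, 4188, 4071 and 3403 CPM and S100a11 at 2912, 3037, 3386 and 3123 CPM. Of 7 WAP, resistin and lipocalin relatives 1 was tested: Slpi, the secretory leukocyte protease inhibitor, at 3189, 3762, 2648 and 3800 CPM (log2 change -0.08, edgeR adjusted p = 0.976), while Retn had 5.83 to 24.2 CPM. Of 12 tumour neutrophil activation genes 11 were tested and 1 was called. This was Vegfa, the angiogenic growth factor, which fell by 1.57 on the log2 scale (SE 0.31, edgeR adjusted p = 0.0289), from 384.8 and 553.0 to 155.9 and 150.4 CPM; the call was lost without KO 1 and in 3 other alternatives (adjusted p up to 0.556). Il1b and Ccl4, the most abundant of that list, stood at 16230, 11480, 20500 and 24190 CPM and at 10550, 7130, 11120 and 9944 CPM, with log2 changes of 0.72 (adjusted p = 0.159) and 0.29 (adjusted p = 0.777).

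In monocyte- or macrophage-like cells, where 7.67% of all genes tested were called higher, the lists were read in the same way. Of 9 specific and gelatinase granule genes tested 4 were higher in KO: Adam8, a membrane protease, rose by 0.73 (SE 0.09, edgeR adjusted p = 0.00404), Pglyrp1 by 1.06 (SE 0.21, adjusted p = 0.0193) and Cybb, the NADPH oxidase subunit, by 0.85 (SE 0.17, adjusted p = 0.0227), and Cd177, named after its value was seen, was the other. Pglyrp1 was lost without WT 1 (adjusted p = 0.0798) and Cybb without KO 1. Of 14 maturation and CSF3 signalling genes 3 were higher, among them the formyl peptide receptor Fpr2, which rose by 1.59 (SE 0.17, adjusted p = 0.00477), and Socs3, an inhibitor of cytokine signalling, which rose by 0.72 (SE 0.10, adjusted p = 0.00620). Their median log2 changes were 0.73 and 0.23, against -0.02 over all genes.

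Of the 10 S100 relatives and receptors 1 was higher there: Bsg rose by 0.40 (SE 0.10, edgeR adjusted p = 0.0344), lost when any single library was left out and in 4 other alternatives, total counts among them (adjusted p up to 0.153). Of 5 WAP, resistin and lipocalin relatives Wfdc18, another WAP gene, rose by 1.34 (SE 0.20, adjusted p = 0.00693), from 1.38 and 1.11 to 2.81 and 2.92 CPM, and was lost with a per-cell marker gate (adjusted p = 0.0807). Retnla, the resistin relative of alternatively activated macrophages, fell by 2.60 (SE 0.43, adjusted p = 0.0340), from 22.7 and 12.2 to 1.92 and 3.28 CPM, and was lost without KO 1 or KO 2 and in 7 other alternatives (adjusted p up to 0.607). Of 12 activation genes 8 were higher, led by Cd274 (1.62, SE 0.12, adjusted p = 0.000853), Tnf (1.00, SE 0.09, adjusted p = 0.00128) and Ccl4 (1.70, SE 0.15, adjusted p = 0.00131). The interaction test called 0.525% of all genes lower and 12 of 11807 higher, and fewer genes in all with any library left out. Of these 12 activation genes 6 had a lower change in neutrophil-like cells. Of the 16 maturation genes 1 had a higher one, Cxcr2, named after its value was seen. As a marker used to name the neutrophil-like class, it is high there by construction, and its call is a description only. Cxcr2 stood at 1.00, 0.498, 0.308 and 0.225 CPM in monocyte- or macrophage-like cells. Its log2 change was -1.325 there and 0.18 in neutrophil-like cells (edgeR adjusted p = 0.0754 and 0.934).

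Within neutrophil-like cells the members varied together only in part. After thinning to 1000 UMIs, 699 cells remained (186, 106, 332 and 75). Cells with Retnlg had an Lcn2 UMI in 35.0% of cases and cells without it in 15.2%, and S100a9 stood at 50430 CPM in the former and 20640 CPM in the latter. Lcn2 shares did not follow Csf3r: 19.6% of cells with a Csf3r UMI and 19.9% of those without had one. In WT 1 Lcn2 was also high where S100a9 was not detected, at 2271 CPM in 48 such cells against 1319 CPM in 138 cells with S100a9; in KO 1 the values were 26.3 and 346.9 CPM. Of the 775 cells 16 had UMIs of all 7 members and 25 of none, with a median of 4 members per cell. Cells of 1 library share their source, so these shares carry no test.

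Over 20 sums of 5 classes and 4 libraries, Pearson correlations of log2(CPM + 1) among 4930 genes gave the genes most like each member. S100a9 was most like G0s2 (0.990), Il1f9 and Cstdc4, Retnlg most like Stfa2l1 (0.983), Nlrp12 and Ubap1, and Lcn2 most like Retnlg (0.978), Lrg1 and Rybp. S100a8 and Wfdc21 were most like each other (0.984), followed for S100a8 by S100a9 and Adipor1 and for Wfdc21 by Ccdc126 and Mrgpra2b. Csf3r was most like Sgms2 (0.979), Slpi and Tnfaip6. Wfdc17 stood apart: its nearest genes were Ccl6 (0.926), Cd63 and Metrnl, and its correlations with the other members ran from 0.377 with Retnlg to 0.717 with Csf3r. The sums share libraries and differ in depth, and neutrophil markers define 1 of the 5 classes, so these values describe the classes more than the cells.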

How the data were processed

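The 7 members and the gene lists were chosen with earlier results of these data known. The authors deposited raw UMI counts as whole numbers. Per the file headers the counting tool was Cell Ranger 5.0.0, while the submitters' processing notes name 5.0.1, the build mm10 and, with no role, Seurat 3.15. The lowest barcode held 500 UMIs.

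Barcodes needed 200 genes and no more than 20% of UMIs from mitochondria. Scrublet (scanpy 1.11.5) marked too few cells, so the top-scored 0.8% per 1000 barcodes were left out as doublets. Cells were clustered without the members on 2000 variable genes, 30 principal components and 15 neighbours (Leiden, resolution 1), with no integration and no removal of free RNA. Clusters were named by markers; the thresholds were set after the clusters were seen. Counts were summed per class and library and tested with edgeR 4.0.16 (filterByExpr, TMM, robust quasi-likelihood test, two-sided, Benjamini-Hochberg, threshold 0.05) and, as an alternative, DESeq2. The test was tried on simulated data. Intervals cover counting error only.

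Named list genes were up to 3 with the smallest adjusted p among those called in a class and the 2 most abundant in neutrophil-like cells. The gene knocked out and 1 list gene are not reported here. Gene positions are GENCODE M21 (mm10). Pairing by replicate number was checked: deviations correlated at -0.131 in neutrophil-like and 0.020 in monocyte- or macrophage-like cells, and the labels state no pairing.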

Additional observations from a re-analysis of the deposited data

Results flagged for a closer look

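The change of Wfdc17 in KO passed a test of the difference between classes: the log2 change in neutrophil-like cells minus that in monocyte- or macrophage-like cells was -1.39 by the interaction test. Wfdc21 passed it too, at -1.38, with libraries of 157.2 to 679.2 CPM in neutrophil-like cells and 1.95 to 5.05 CPM in the other class. Of 15 alternatives 9 called the difference for Wfdc17 and 10 for Wfdc21, and both calls were lost without WT 1, WT 2 or KO 2. With each library left out in turn the estimates ran from -2.03 to -0.90 for Wfdc17 and from -2.83 to -0.52 for Wfdc21.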

How the results depend on the processing

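Each count below is the number of genes, or of the 7 members, called by edgeR's quasi-likelihood test at an adjusted p under 0.05. The main counts were 32 genes and 1 member in neutrophil-like cells, 1670 and 2 in monocyte- or macrophage-like cells, 425 and 0 in monocyte-like cells, 2026 and 3 in macrophage-like cells, and 74 and 2 for the difference between neutrophil-like and monocyte- or macrophage-like cells. In neutrophil-like cells the gene count was 50 with RLE scaling, 97 with no filter on low counts, 90 with at most 10% mitochondrial UMIs, 131 with at least 500 genes, 130 with a per-cell marker gate, 64 without cells holding mast or basophil UMIs, and 2 with doublet calls kept. The members called there were 2 with no filter and 0 with doublet calls kept. In monocyte- or macrophage-like cells the gate gave 652 genes and 1 member, DESeq2 gave 4 members, and keeping doublet calls or counting the clusters led by other markers gave 1 member each. In monocyte-like cells leaving out the filter gave 981 genes and 3 members, and total counts, DESeq2, Leiden resolution 2, kept doublet calls, at least 500 genes and the gate gave 1 member each. In macrophage-like cells total counts gave 3359 genes, the gate 1015, and the 10% mitochondrial limit 897 genes and 1 member. For the difference between the classes the genes were 41 with DESeq2, 147 with the gate and 44 with the clusters led by other markers counted, each with 1 member called, and kept doublet calls and the mitochondrial limit also gave 1 member. The cause of these shifts was not tested.

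Leaving out each library in turn gave 25 to 188 genes and 0 to 3 members in neutrophil-like cells, and 883 to 1857 genes and 1 to 3 members in monocyte- or macrophage-like cells. It gave 235 to 755 genes and 0 to 2 members in monocyte-like cells, 576 to 1790 genes and 3 to 5 members in macrophage-like cells, and 28 to 53 genes and 0 to 2 members for the difference between the classes. With 1 library left in a group, that library is assumed to vary like the others.

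With the replicate block, neutrophil-like cells gave 11 genes and 0 members, since Retnlg had a log2 change of -1.81 (edgeR adjusted p = 0.0781), and monocyte-like cells gave 836 genes and 1 member. S100a8 in monocyte- or macrophage-like cells had an adjusted p of 0.0659 in edgeR with the block, and the Cybb call in that class was also lost with it. Deviations of same-numbered libraries correlated at -0.131 and 0.020, so the numbers were not taken to pair the libraries. A crossed pairing, added after seeing the data, gave 146 genes and 2 members in neutrophil-like cells.

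The direction of some member changes turned. S100a9 had a log2 change of 0.23 in macrophage-like and 0.19 in monocyte- or macrophage-like cells with doublet calls kept, and 0.28 in the latter with the gate. S100a8 in monocyte-like cells was at -0.48 with Leiden resolution 2 and -0.042 with the gate. Wfdc17 in monocyte-like cells was at 0.60 with doublet calls kept, 0.22 with the mitochondrial limit, 0.17 with at least 500 genes and 0.35 with the gate. Over the libraries left out, log2 changes in neutrophil-like cells ran from -0.045 to 0.19 for S100a9, -0.37 to 0.15 for Slpi and -0.17 to 0.83 for Wfdc17. S100a9 ran from -1.10 to 0.092 in monocyte- or macrophage-like and -0.10 to 1.19 in monocyte-like cells, and the Retnlg difference between the classes from -0.82 to 2.05. Levels moved too. In neutrophil-like cells kept doublet calls put the mean at 15990 CPM for S100a8 and 21900 for S100a9, and the gate put it at 5571 for S100a8, 7804 for S100a9, 343.1 for Retnlg, 240.5 for Csf3r and 112.8 for Wfdc21. S100a9 in monocyte- or macrophage-like cells was at 8.242 CPM with the gate. Few neutrophil-like UMIs per library limit what can be called there.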
